A study of Mus musculus with 6 samples.

Results

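The genes described here encode enzymes of methionine salvage, of the methionine cycle and of transsulfuration: Adi1, Mtap, Apip, Mat2a, Mat2b, Ahcy, Mtr, Cbs and Cth. Every array probe that carried one of these 9 gene names and was no control was taken, which gave 13 probes of 41174. The genes were chosen by the strain difference measured for Adi1 on these arrays, to which the other enzymes of its pathways were added, so the strain differences of all 13 probes are given as a description, without p-values. Whole prefrontal cortex of 3 mice of the inbred strain BTBR T+ Itpr3tf/J, called BTBR here, was compared with that of 3 C57BL/6J mice, labelled wild type. All 6 mice were males aged 5 months that received no drug, and each had its own Cy3-labelled Agilent array. The strain background field of the BTBR mice also reads C57BL/6J, and the group was taken from the genotype field. BTBR and C57BL/6J are separate inbred strains that differ at many loci, so the comparison is between whole genomes and not between alleles of any gene described here.

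Methionine is activated by methionine adenosyltransferase to S-adenosylmethionine, the methyl donor of most cellular methylation reactions. The product left after methyl transfer is split to homocysteine, which is either methylated back to methionine or passed through cystathionine to cysteine, the route called transsulfuration. Polyamine synthesis also consumes S-adenosylmethionine and leaves methylthioadenosine, which the salvage pathway returns to methionine in a chain of steps that starts with Mtap and includes Mri1, Apip, Enoph1 and Adi1. In brain the methionine cycle serves the methylation of DNA, histones, lipids and neurotransmitters, and transsulfuration feeds glutathione synthesis.

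Each probe is a 60-base oligonucleotide, and its sequence fixes which stretch of RNA a value reports. Those of the 6 genes with a single probe are shown first, since each gene's result rests on it, as the first 30 bases with no part marked. Positions are those of the array files in mm9, and the part of the gene model at each position was not analysed here. Whether the strains differ in sequence under a probe was not analysed either, so every difference in this report is one of probe signal. The Adi1 probe lies at chr12:29366375-29366434 on the plus strand. The Mtap probe lies at chr4:88826213-88826272 and the Apip probe at chr2:102932661-102932720, both on the plus strand. The Mat2a probe lies at chr6:72382856-72382915, the Cbs probe at chr17:31749967-31750026 and the Cth probe at chr3:157557667-157557726, all on the minus strand.
Adi1: aaactaagttaccttaattgtatgctcaca
Mtap: gccggtgtttaatgcaagccagtgtgactc
Apip: catgaagaagatgggactcgatccaacaca
Mat2a: tgactgcttgccctaagcaagaaagtgcct
Cbs: cctcctaacacccagctacctaaatgaatc
Cth: ccaaatcttcggaataactggacagatcat

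The other 3 genes had several probes, shown because the probes of a gene could be set against each other. Mat2b had 3 probes on the minus strand, A_51_P510758 at chr11:40493216-40493275, A_52_P288811 at chr11:40498282-40498733 and A_52_P362836 at chr11:40499506-40499565. The second of these spans 452 bases of genome and so crosses at least 1 intron in the files' alignment. Mtr had A_51_P218612 at chr13:12309139-12313720 and A_51_P408310 at chr13:12279322-12280330, both minus strand and both with a span above the probe length of 60 bases. Ahcy had A_52_P176160 at chr2:154891321-154891380 and A_51_P473528, which the files place at chr16:46153220-46153285, both on the minus strand. RefSeq's GRCm38.p6 gene table puts Ahcy on chromosome 2 and lists on chromosome 16 a gene, Gm4737, that shares a synonym with Ahcy, so the value of A_51_P473528 may belong to either and is uncertain. Probes that span an intron are printed whole and the others by their first 30 bases, with no part marked.
Mat2b A_51_P510758: tgaaacagactgttagactttggatgaaat
Mat2b A_52_P288811: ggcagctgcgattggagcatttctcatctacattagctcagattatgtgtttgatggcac
Mat2b A_52_P362836: aatgagtggtcaaaaaagcttgaatttatg
Mtr A_51_P218612: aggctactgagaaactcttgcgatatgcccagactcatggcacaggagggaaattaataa
Mtr A_51_P408310: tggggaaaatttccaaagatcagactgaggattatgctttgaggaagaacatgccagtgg
Ahcy A_52_P176160: gcattgagcagacgctgcacttcaaggacg
Ahcy A_51_P473528: aagtgacagactgaaaggggctggaaaaca

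A level is log2 of a probe's background-subtracted signal minus the 75th percentile of its array, so a level of 0 is that percentile itself and levels below 0 are dimmer. Between 68.2% and 74.5% of probes were well above background on each array, and no spot was saturated. This share and the 75th percentile before scaling were both lower in every BTBR mouse than in every C57BL/6J mouse. For replicates 1 to 3 the share was 72.7%, 68.2% and 71.7% in BTBR, against 72.8%, 73.3% and 74.5%. The percentile stood at a signal of 919, 859 and 1184 in BTBR, against 1607, 1244 and 1209. What this dimmer BTBR signal adds to the differences of dim probes was not tested. The arrays lay on 2 slides, slide 1 with replicates 1 and 2 of each strain and slide 2 with replicate 3 of each, so each difference is also given within the slides where it bears on a result. Of 7 neuronal marker genes, 0 passed limma's test (0 also at an unadjusted p of 0.05). All 6 cortical excitatory markers had a higher mean in BTBR, with a median difference of 0.26. Oligodendrocyte markers were lower in BTBR, 2 of 7 past limma's test (5 at an unadjusted p under 0.05) and 7 of 7 lower in mean. Their summed level (log2 of the sum) was 7.11 to 7.42 in C57BL/6J and 6.66 to 6.83 in BTBR. The summed level of 7 astrocyte markers was 7.59 to 7.82 in C57BL/6J and 7.56 to 7.63 in BTBR, with Gfap lower in BTBR (-1.21, adjusted p = 0.0153, limma). Of 7 microglial markers 1 passed limma's test, C1qb, which was lower in BTBR, and 2 had an unadjusted p under 0.05, each lower in BTBR. In the endothelial, cortical, striatal, choroid plexus and liver and blood lists 0 genes passed limma's test (0 also at an unadjusted p of 0.05). The part of these marker differences in the results that follow was not tested. The striatal marker score stood at 2.51 in C57BL/6J replicate 3 and at most at 0.54 in the other 5 mice, while its cortical excitatory score was -0.77. The choroid plexus score stood at 2.73 in C57BL/6J replicate 1 and at most at 0.22 in the other 5 mice. The counts of probes and genes past the test, and the member differences, were also computed without each mouse in turn.

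All 13 probes of the pathway genes entered the fit, and 12 were well above background on all 6 arrays. The mean was higher in BTBR for 8 probes and lower for 5, and the median difference, BTBR minus C57BL/6J, was 0.13 on the log2 scale against 0.04 over all 30011 entered probes. The strains did not overlap at 5 probes, of which 4 were higher and 1 lower in BTBR, where 22.8% of all entered probes did not overlap. Only the Adi1 probe passed limma's test across all entered probes, 1 of 13 against a background of 5.44% called, and since Adi1 was chosen for this difference nothing is read from that count. Adi1 was also the only member with a difference of at least 1.5-fold, from which nothing is read for the same reason. The next largest increase was 1.34-fold.

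**Figure D1:**
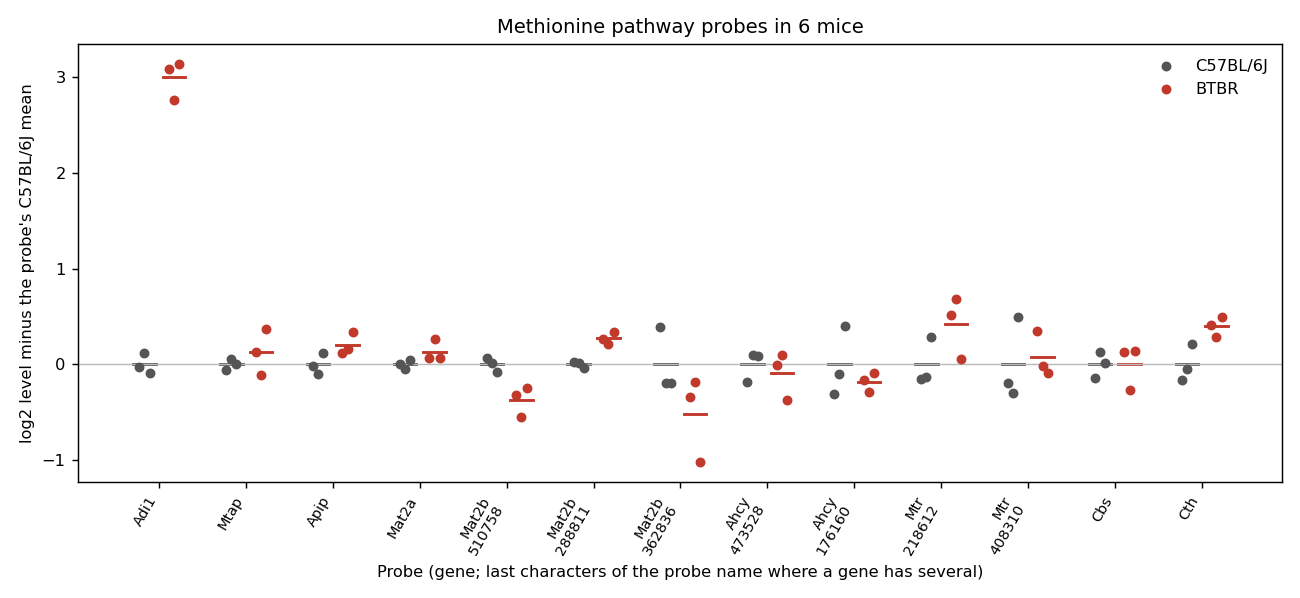
Level of each of the 13 probes in every mouse minus the probe's C57BL/6J mean (log2), with C57BL/6J in grey, BTBR in red and a bar at each strain's mean. The 3 BTBR mice stand far above 0 for Adi1, with their mean at 3.00, while for the other 12 probes the BTBR means lie between -0.52 and 0.42.

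Adi1 encodes acireductone dioxygenase, the salvage enzyme that makes the keto acid from which methionine is formed. Its level was -2.39, -2.24 and -2.45 in the 3 C57BL/6J mice and 0.73, 0.40 and 0.78 in the 3 BTBR mice. All BTBR mice were far above all C57BL/6J mice, and the gap between the strains was much wider than the spread within either. The strain means were -2.36 ± 0.11 (SD, n = 3) and 0.64 ± 0.20 (SD, n = 3). The difference of 3.00 ± 0.14 (SE) corresponds to 7.99-fold. Its 95% confidence interval from the fit was 2.66 to 3.33 on the log2 scale, which takes no account of the choice of Adi1 for this difference. Before scaling, the signals were 307, 263 and 221 in C57BL/6J and 1525, 1137 and 2034 in BTBR, so the groups were separate in the raw signal too. The difference was 2.88 within slide 1 and 3.23 on slide 2. In whole tissue, a change in the share of cells that hold an RNA and a change in RNA per cell cannot be told apart.

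Mtap, methylthioadenosine phosphorylase, takes the first step of salvage. Its level was -1.74, -1.62 and -1.67 in C57BL/6J and -1.55, -1.79 and -1.31 in BTBR. The C57BL/6J mice lay inside the range of the BTBR mice, so the strains overlapped. The difference was 0.13 ± 0.15 (SE), with a 95% interval of -0.22 to 0.48.

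Apip encodes the dehydratase that acts upstream of Adi1 in the same chain. Its level was 2.05, 1.97 and 2.18 in C57BL/6J and 2.18, 2.22 and 2.40 in BTBR, and the strains met at 2.18. The difference was 0.20 ± 0.12 (SE), with an interval of -0.08 to 0.48, and it was 0.19 and 0.22 on the slides. Of the 3 salvage genes among the members, only Adi1 stood clear of the other strain, but Adi1 was chosen for that difference. The intervals of Mtap and Apip end below a 1.5-fold increase. They are unadjusted and come from 3 mice per strain and 1 probe per gene, so no size of change is excluded by them.

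Mat2a encodes the catalytic subunit of the methionine adenosyltransferase found in brain. It stood at 4.74, 4.68 and 4.78 in C57BL/6J and at 4.80, 4.99 and 4.80 in BTBR. The strains did not overlap, but the gap between the highest C57BL/6J mouse and the lowest BTBR mice was narrower than the range within BTBR. The difference was 0.13 ± 0.11 (SE), with an interval of -0.13 to 0.39, and 0.02 on slide 2.

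Mat2b encodes the regulatory subunit that binds Mat2a, and its probes went in opposite directions. A_51_P510758 was lower in BTBR, at 3.59, 3.53 and 3.45 in C57BL/6J and 3.20, 2.97 and 3.27 in BTBR, a difference of -0.37 ± 0.12 (SE) with an interval of -0.66 to -0.08. A_52_P288811, the probe that crosses an intron, was higher in BTBR, at 1.86, 1.85 and 1.80 against 2.10, 2.05 and 2.18, a difference of 0.28 ± 0.10 (SE) with an interval of 0.04 to 0.51. Neither probe's values overlapped between strains, and both kept their direction on each slide. Measured within an array, where scaling cancels, the log2 signal of A_51_P510758 exceeded that of A_52_P288811 by 1.73, 1.68 and 1.64 in C57BL/6J and by 1.10, 0.92 and 1.10 in BTBR. This gap was 1.69 ± 0.04 (SD, n = 3) in C57BL/6J and 1.04 ± 0.10 (SD, n = 3) in BTBR, a difference of -0.65, and every BTBR mouse had a smaller gap than every C57BL/6J mouse. No single direction for Mat2b RNA can be given from these probes.

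The third Mat2b probe, A_52_P362836, was dim. It was well above background on all 3 C57BL/6J arrays and on 1 BTBR array. Its level was -5.20, -5.78 and -5.77 in C57BL/6J and -5.93, -5.77 and -6.60 in BTBR, with overlapping strains and a difference of -0.52 ± 0.27 (SE). Its interval, -1.16 to 0.13, was the widest among the member probes.

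Ahcy encodes adenosylhomocysteinase, which splits the product of methyl transfer. The chromosome 2 probe A_52_P176160 stood at -2.78, -2.57 and -2.07 in C57BL/6J and -2.64, -2.76 and -2.56 in BTBR, a difference of -0.18 ± 0.20 (SE). A_51_P473528 stood at -2.23, -1.95 and -1.96 against -2.05, -1.95 and -2.42, a difference of -0.09 ± 0.16 (SE). The strains overlapped at both probes. The intervals were -0.65 to 0.29 and -0.48 to 0.29.

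Mtr encodes methionine synthase, the cobalamin-dependent enzyme that methylates homocysteine back to methionine. A_51_P218612 stood at -3.64, -3.62 and -3.20 in C57BL/6J and -2.97, -2.80 and -3.43 in BTBR. The replicate 3 mice of both strains fell within the range of the other strain, and the difference was 0.74 on slide 1 and -0.23 on slide 2. Pooled, it was 0.42 ± 0.21 (SE), with an interval of -0.08 to 0.92. A_51_P408310 stood at -4.54, -4.65 and -3.86 against -4.01, -4.37 and -4.45 and showed the same turn, 0.41 on slide 1 and -0.59 on slide 2, with a pooled difference of 0.08 ± 0.24 (SE). Slide 2 holds 1 mouse of each strain, so slide and mouse cannot be told apart there.

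Cbs encodes cystathionine beta-synthase, which commits homocysteine to transsulfuration. Its level was -0.28, -0.01 and -0.13 in C57BL/6J and -0.01, -0.41 and 0.00 in BTBR. The strains overlapped fully and the difference was 0.00 ± 0.15 (SE), with an interval of -0.37 to 0.37.

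Cth encodes cystathionine gamma-lyase, which releases cysteine in the next step. Its level was -2.14, -2.01 and -1.76 in C57BL/6J and -1.56, -1.68 and -1.48 in BTBR. All BTBR mice were above all C57BL/6J mice, by little at the nearest pair. The means were -1.97 ± 0.19 and -1.57 ± 0.10 (SD, n = 3 each), a difference of 0.40 ± 0.14 (SE) or 1.32-fold, with an interval of 0.07 to 0.72. It was 0.45 on slide 1 and 0.28 on slide 2.

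**Figure D2:**
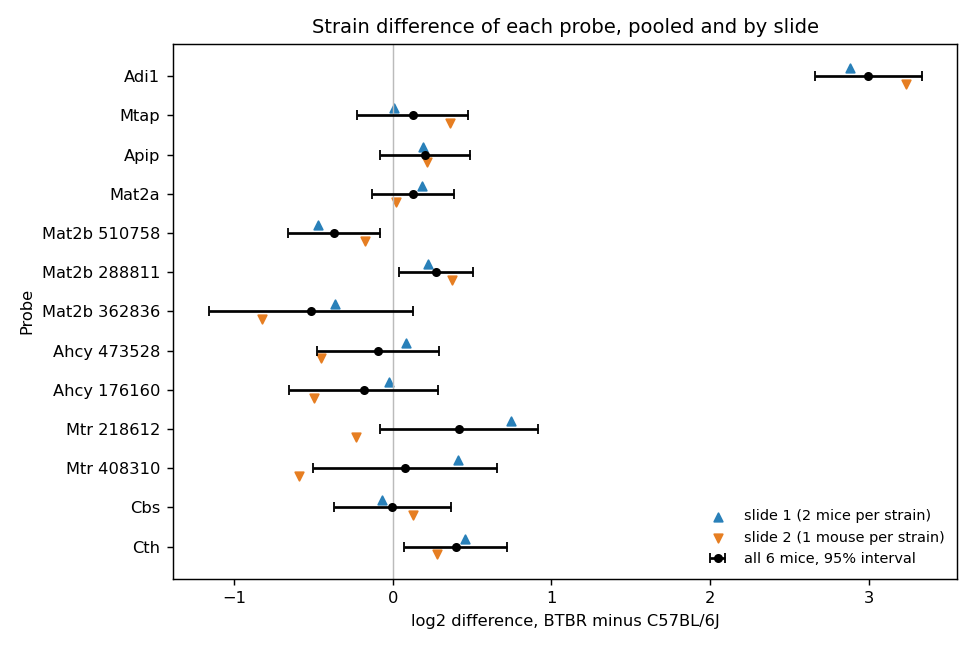
Difference in level, BTBR minus C57BL/6J (log2), of the 13 probes as points with 95% intervals, and the differences within slide 1 and slide 2 as separate marks. Adi1 lies at 3.00, the other 12 probes lie between -0.52 and 0.42, and the slides have the same sign for 9 of 13 probes, all but both Mtr probes, Ahcy A_51_P473528 and Cbs.

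The genes around Adi1 on chromosome 12 were tested in the same fit, since they show whether its difference was alone in its neighbourhood. Of 17 probes within 500 kb, 13 entered the fit, under 9 gene names, and 3 passed limma's test, 1 higher and 2 lower in BTBR. Over all entered probes 5.44% passed, 2.19% higher and 3.25% lower. Allc rose, and Colec11, which lies between Allc and Adi1, fell, as did 1 probe of Trappc12 on the other side. The probes of the 3 genes are shown by their first 30 bases, together with a Trappc12 probe that did not pass, printed whole because it crosses an intron, with no part marked.
Allc A_51_P394040: caccatagtacataccatacccactgtctt
Colec11 A_51_P174275: attatggctaaccactcggaaggatgctgt
Trappc12 A_51_P299655: ttcagattatgaaatggacatatatcatgc
Trappc12 A_51_P247665: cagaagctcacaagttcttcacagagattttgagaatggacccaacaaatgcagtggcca

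Allc encodes allantoicase, an enzyme named for a step of purine degradation, and its probe at chr12:29238638-29238692 lies 128 kb before that of Adi1. Its level was -3.62, -3.72 and -4.73 in C57BL/6J and -0.87, -1.45 and -1.71 in BTBR. The strains did not overlap, and the difference of 2.68 ± 0.35 (SE), 6.40-fold, passed limma's test (adjusted p = 0.00832). It was 2.51 on slide 1 and 3.02 on slide 2.

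Colec11 encodes a secreted collectin of innate immunity, and its probe at chr12:29279240-29279299 lies 87.1 kb before that of Adi1. Its level was -2.14, -2.23 and -2.59 in C57BL/6J and -2.98, -3.23 and -3.10 in BTBR. It fell by 0.78 ± 0.15 (SE) on the log2 scale, 1.72-fold (adjusted p = 0.0370, limma), and the strains did not overlap. Leaving out C57BL/6J replicate 1 or 2, or any 1 BTBR mouse, ended this call, with adjusted p between 0.0827 and 0.146 in limma's test.

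Trappc12 encodes a subunit of a vesicle tethering complex. Its probe A_51_P299655, at chr12:29403657-29403716 and 37.2 kb beyond the Adi1 probe, stood at -4.13, -4.51 and -4.53 in C57BL/6J and -7.21, -6.93 and -6.57 in BTBR. The difference was -2.51 ± 0.20 (SE) and passed limma's test (adjusted p = 0.00110), but the probe was well above background on 1 of the 3 BTBR arrays. In BTBR replicates 1 and 2 it lay below the lowest level of any probe well above background (-6.42 and -5.83), so no fold is given. In the authors' matrix the difference was -0.28 (adjusted p = 0.0271, limma). The gene's other 3 entered probes lay at 0.28, 0.14 and 0.19, and none passed (adjusted p = 0.316, 0.707 and 0.621, limma). A_51_P299655 therefore does not stand for the gene as a whole, and its drop is a result about that probe.

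The remaining neighbours did not pass the test. Rnaseh1, which encodes ribonuclease H1 and whose probe lies 22.3 kb from that of Adi1, stood at 0.44, 0.39 and 0.41 in C57BL/6J and 0.68, 0.59 and 0.78 in BTBR, a difference of 0.27 without overlap (adjusted p = 0.247, limma). The ribosomal protein gene Rps7 differed by 0.16 (adjusted p = 0.539, limma) and 1700022F17Rik by 0.61 (adjusted p = 0.154, limma), the latter well above background on 1 C57BL/6J and 3 BTBR arrays and past the test without BTBR replicate 3. The entered probes nearest to that of Adi1 on either side, Rnaseh1 at 0.27 and Trappc12 A_52_P555680 at 0.28, thus differed far less than Adi1. Tssc1, now named Eipr1, differed by 0.06 and -0.05 at its 2 probes (adjusted p = 0.898 and 0.903, limma). AK036142 differed by -0.20 and 4833405L11Rik by 0.45 (adjusted p = 0.712 and 0.764, limma). Dcdc2c, AK089505 and 1 further probe each of Trappc12 and 4833405L11Rik did not enter.

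**Figure D3:**
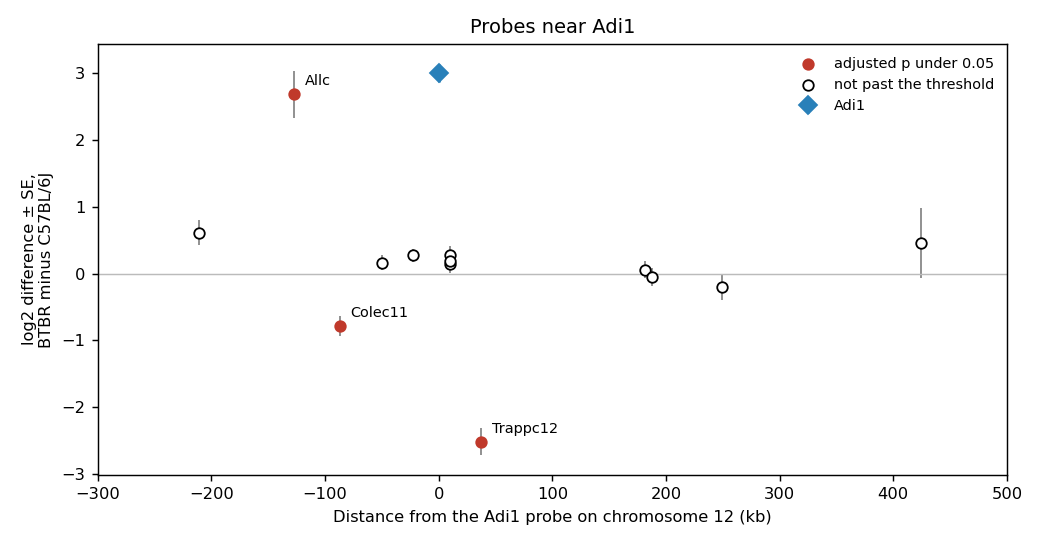
Difference in level, BTBR minus C57BL/6J (log2), of the entered probes within 500 kb against distance from the Adi1 probe (kb), with error bars of 1 SE and called probes filled. Adi1 at 3.00 and Allc at 2.68 stand high, Trappc12 A_51_P299655 at -2.51 stands low, and the other Trappc12 probes lie near 0.

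The other genes of the pathway and of its neighbours, 105 in 6 lists, were each represented by their brightest entered probe. Of 101 tested genes, 3 passed limma's test, 1 higher (Tpmt) and 2 lower (Mri1 and Inmt), which is 2.97% against 5.25% of the 16053 named genes on the arrays. The mean was higher in BTBR for 38 genes and lower for 63, and the median difference was -0.06 against 0.01 over all named genes. The share of all probes with an unadjusted p under 0.05 is not given. Nothing is therefore read from counts at that threshold, in these lists or in the marker lists.

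Of 7 other salvage genes, 1 passed, Mri1, which fell, and the mean was lower in BTBR for 6 (median -0.08). Mri1 encodes the isomerase that acts after Mtap and before Apip. Its brightest probe A_52_P367792, at chr8:86775559-86777769 on the minus strand, stood at 0.77, 0.88 and 0.63 in C57BL/6J and 0.16, -0.05 and -0.11 in BTBR. The difference was -0.76 ± 0.12 (SE), 1.69-fold (adjusted p = 0.0199, limma), and the strains did not overlap. A_52_P367791, at chr8:86775514-86775573, stood at 0.65, 0.62 and 0.41 against -0.16, -0.37 and -0.33, a difference of -0.85 ± 0.12 (SE) or 1.80-fold (adjusted p = 0.0111, limma). These probes share 15 bases, marked in capitals, so they are not independent readings of the gene, and the first 30 bases of A_52_P367791 are shown beside the whole of A_52_P367792.
Mri1 A_52_P367792: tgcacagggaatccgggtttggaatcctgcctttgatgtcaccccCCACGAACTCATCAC
Mri1 A_52_P367791: CCACGAACTCATCACaggtggcatcatcac

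Another Mri1 probe, A_52_P535782, differed by -0.52 ± 0.26 (SE) with overlapping strains (adjusted p = 0.401, limma). Leaving out C57BL/6J replicate 1 or 2, or any 1 BTBR mouse, ended the call of A_52_P367792, with adjusted p from 0.0521 to 0.0909 in limma's test. Enoph1, the enzyme directly before Adi1, differed by -0.08 (adjusted p = 0.798, limma) and by 0.03 at a second probe (adjusted p = 0.962, limma). The transaminases Kyat1 and Kyat3, which can form methionine from its keto acid, differed by -0.12 and -0.08 (adjusted p = 0.742 and 0.781, limma).

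In polyamine synthesis and turnover, which makes the substrate of salvage, 0 of 12 genes passed limma's test (3 had an unadjusted p under 0.05), with a median of 0.17 and 9 means higher in BTBR. Amd1, S-adenosylmethionine decarboxylase, stood at 2.65, 2.54 and 2.60 in C57BL/6J and 2.85, 2.94 and 2.95 in BTBR, a difference of 0.32 without overlap (adjusted p = 0.156, limma). Its near-identical copy Amd2 also differed by 0.32 (adjusted p = 0.268, limma), and these probes may share RNA. Spermidine synthase Srm differed by -0.34 (adjusted p = 0.292, limma). Ornithine decarboxylase Odc1 differed by -0.24 (adjusted p = 0.327, limma), while a second probe of it, A_52_P436238, fell by 0.67 on the log2 scale (adjusted p = 0.0223, limma).

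Among genes of the methionine cycle and of cobalamin handling, 0 of 16 passed limma's test (3 with an unadjusted p under 0.05), with a median of -0.06. Mtrr, the reductase that reactivates methionine synthase, stood at -3.69, -4.08 and -3.94 in C57BL/6J and -3.61, -3.42 and -3.38 in BTBR. Its difference was 0.44 at this probe and 0.64 at a second, in the same direction and both short of the threshold (adjusted p = 0.173 and 0.0566, limma). With normexp background correction the first Mtrr probe stood at -0.07. Bhmt and Bhmt2, which methylate homocysteine with betaine or S-methylmethionine, differed by -1.16 and -1.04 with overlapping strains (adjusted p = 0.330 and 0.271, limma). Both probes were dim, well above background on 3 C57BL/6J and 2 BTBR arrays. In the authors' matrix their differences were -0.21 and -0.22. Slc25a26, the mitochondrial carrier of S-adenosylmethionine, differed by -0.29 (adjusted p = 0.293, limma).

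In folate one-carbon metabolism, which supplies the methyl group used by Mtr, 0 of 23 genes passed limma's test (4 with an unadjusted p under 0.05), with a median of -0.06 and 16 means lower in BTBR. Mthfd2, a mitochondrial folate dehydrogenase, stood at -3.31, -3.23 and -3.70 in C57BL/6J and -4.01, -4.15 and -3.97 in BTBR, a difference of -0.63 without overlap (adjusted p = 0.0770, limma). Without C57BL/6J replicate 3 its difference was -0.77 and passed (adjusted p = 0.0266, limma). Thymidylate synthase Tyms differed by -0.47 and Aldh1l2, a mitochondrial formyltetrahydrofolate dehydrogenase, by -0.38 (adjusted p = 0.119 and 0.194, limma). Further Tyms probes did not share a direction, A_52_P292651 at -0.59 and the dimmer A_51_P375761 at 0.18 (adjusted p = 0.0793 and 0.803, limma). Shmt1, cytosolic serine hydroxymethyltransferase, differed by 0.36 (adjusted p = 0.242, limma), and its second probe A_52_P673499 rose by 0.71 (adjusted p = 0.0201, limma). With normexp the brightest Shmt1 probe stood at -0.07.

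In the cysteine, sulfide, taurine and glutathione list, which lies beyond Cth, 0 of 18 genes passed limma's test (2 with an unadjusted p under 0.05), with a median of -0.10 and 13 means lower in BTBR. The thiol dioxygenase Ado stood at 1.36, 1.35 and 1.25 in C57BL/6J and 1.02, 1.11 and 0.89 in BTBR, a difference of -0.31 without overlap (adjusted p = 0.204, limma). The sulfurtransferase Tst differed by -0.26 and the glutathione-degrading enzyme Chac1 by -0.51 (adjusted p = 0.278 and 0.428, limma). The Chac1 difference was -0.89 on slide 1 and 0.26 on slide 2, and -0.26 without C57BL/6J replicate 1. Sulfite oxidase Suox differed by 0.15 (adjusted p = 0.572, limma).

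Of 25 methyltransferases that use S-adenosylmethionine, 2 passed, 1 in each direction, with a median of -0.03. Inmt, which methylates indoleamines such as tryptamine, had the largest difference of the 6 lists. Its level was 0.21, 0.05 and -0.07 in C57BL/6J and -3.48, -3.84 and -2.87 in BTBR, so all BTBR mice were far below all C57BL/6J mice. The means were 0.06 ± 0.14 and -3.40 ± 0.49 (SD, n = 3 each), and the difference of -3.46 ± 0.25 (SE), 11.0-fold, passed limma's test (adjusted p = 7.41e-04). The result rests on its single entered probe, at chr6:55120770-55120829 on the minus strand, shown by its first 30 bases with no part marked.
Inmt: cgaatcgccttccctgggaaagttatagca

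Tpmt, which methylates thiopurine drugs, rose from -2.74, -2.47 and -2.70 in C57BL/6J to -1.63, -1.45 and -1.58 in BTBR. The strains did not overlap, and the difference was 1.09 ± 0.12 (SE), 2.12-fold (adjusted p = 0.00404, limma). Nnmt, which methylates nicotinamide, stood at -2.85, -2.66 and -3.15 against -3.77, -3.95 and -5.23, a difference of -1.43 without overlap that did not pass (adjusted p = 0.110, limma). With slide as a block Nnmt did pass (adjusted p = 0.0267, limma), as it did within slide 1 (-1.11, adjusted p = 0.0212, limma) and without BTBR replicate 3 (-0.97, adjusted p = 0.0451, limma). The DNA methyltransferase Dnmt3b differed by -0.27 (adjusted p = 0.384, limma).

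Taking every entered probe of these genes in place of the brightest, 8 of 162 probes passed limma's test, 2 higher and 6 lower, in 7 genes. Over all entered probes 5.44% passed, 2.19% higher and 3.25% lower. Besides those already named they were A_51_P439970 of Ggh, which trims folate polyglutamates, and A_52_P102642 of the tRNA methyltransferase Trmt1. The Ggh probe differed by -0.66 (adjusted p = 0.0391, limma), against -0.26 at the gene's brightest probe. The Trmt1 probe differed by -1.70 (adjusted p = 0.00156, limma). The brightest Trmt1 probe went the other way, at 0.13 without overlap (adjusted p = 0.635, limma).

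**Figure D4:**
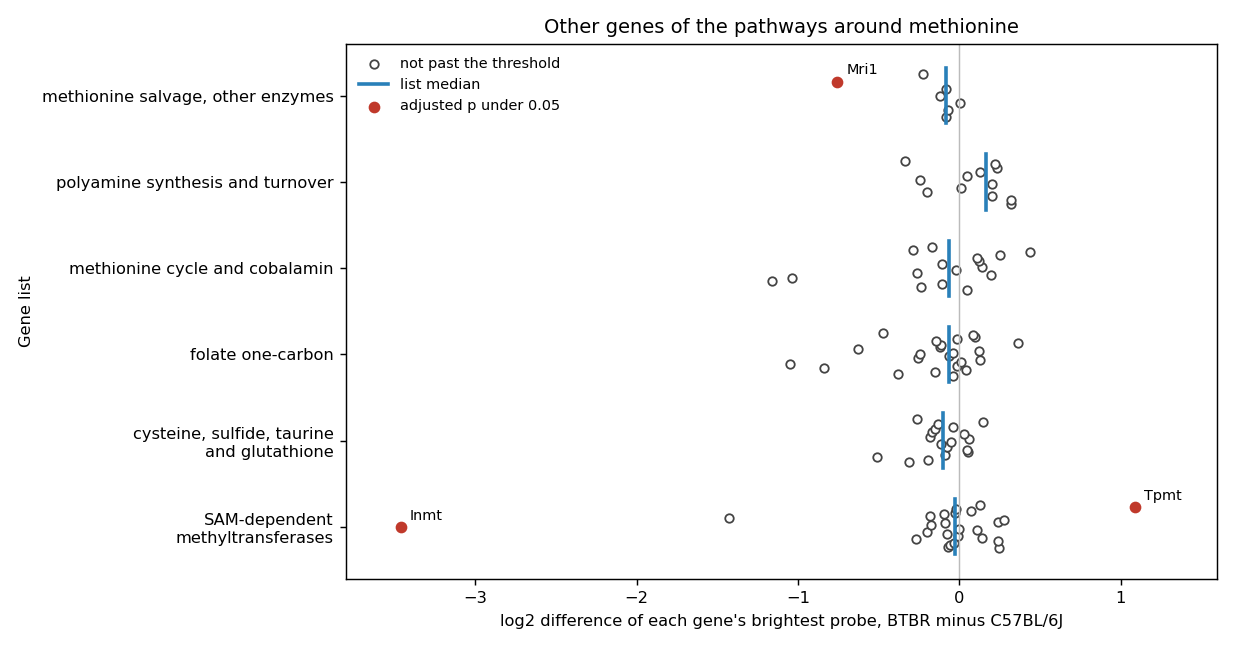
Difference in level, BTBR minus C57BL/6J (log2), of the 101 tested genes in 6 lists, each point a gene at its brightest probe, with genes past the test filled and the median of each list as a bar. List medians lie between -0.10 and 0.17, while Inmt at -3.46, Mri1 at -0.76 and Tpmt at 1.09 are the called genes.

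The probes whose level followed that of Adi1 most closely were sought among 24531 probes well above background on all 6 arrays, as a description over 6 arrays that share a strain split. Adam19, a membrane metalloprotease, had a Pearson r of 0.998 and a strain difference of 1.55. Cuedc1 and Depp1 also had r = 0.998, with differences of 3.27 and 1.63, and Iqcc and the sialyltransferase St6galnac4 had r = 0.997, with differences of 0.82 and 0.77. None of these 5 probes lies on chromosome 12, and 457 probes had an r above 0.95, so many probes shared this pattern.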

How the data were processed

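RNA of whole prefrontal cortex from 3 mice per strain was measured on arrays with a single dye. The deposited scanner files hold intensity values per spot on a linear scale, and per the file headers the images were scanned into values by Agilent's Feature Extraction, version 10.7.3.1. The submitters' processing notes give version 9.1. The authors' deposited matrix holds log2 values whose scale and centring are not stated. Its column medians were 8.82 to 8.83, its columns correlated at 0.915 to 0.929 with log2 scanner signals, and its strain differences at 0.792 with those used here, with a slope of 0.374. It served as an alternative only.

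From log2 of the processed signal, the 75th percentile of the 41174 non-control probes on the array was subtracted, after leaving out flagged spots (54 to 107 per array) where another spot existed and averaging spots of a probe. Probes well above background on at least 3 of 6 arrays entered (30011). Strains were compared per probe with limma 3.58.1 in R 4.3.3, with Benjamini-Hochberg adjustment over all entered probes and a threshold of 0.05. Tables were read with the data.table package, version 1.17.8. Separate mice per array are taken from the design text. A marker score is the median deviation of a list's genes from their means over the arrays, and a summed level is log2 of the sum of their linear levels. Data for this comparison were also simulated over 30011 probes, with 600 probes changed at each of the folds that follow. The test found 37.3% of 1.5-fold, 67.7% of 2-fold and 93% of 4-fold changes. Of all its calls, 6.46% were false. Noise was drawn from a normal distribution, independently for each probe, with the probe's SD within strains. Shifts shared by many probes of an array, such as those in the marker scores, were left out. These percentages therefore hold for the simulation and are not rates for the real calls.

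Probes outside the members were named through accessions (27816), symbols (5503) or synonyms (380) of RefSeq's GRCm38.p6 annotation, and 7475 had no match. Members and lists were chosen with earlier results of these data known. Named are every member probe, up to 4 genes of smallest p in each related list, every probe within 500 kb of Adi1 and the 5 probes most like Adi1. Other probes of a named gene, and Ggh, Trmt1 and Gfap, were named after their values were seen. Alternatives covered background correction, scaling, the filter, probe choice, slide and replicate blocks, array weights and leaving out mice. Whether the replicate numbers pair the mice is not known, and the main fit did not treat them as pairs.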

Additional observations from a re-analysis of the deposited data

How the results depend on the processing

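The Adi1 difference, by which the members were chosen, ranged from 2.15 to 3.23 over 21 alternatives and is given as a description. Calls over all entered probes numbered 1632 (40.3% higher in BTBR). They numbered 170 with normexp background correction (25.9% higher, the median of all probes moving from 0.04 to -0.09), 3928 with array weights (a fit that gave a convergence warning, so its counts are uncertain), 975 at 2-fold or more, 906 with the brightest probe per gene, 959 with the mean of probes per gene, and 1008 without both C57BL/6J replicate 3 and BTBR replicate 2, an alternative chosen after seeing the data. Leaving out 1 mouse gave 858 (BTBR replicate 1) to 1472 (BTBR replicate 3). Member probes called rose from 1 to 2 in the authors' matrix (with Mat2b A_52_P288811), 2 within slide 1 (with Mtr A_51_P218612) and 4 with array weights. Related genes called went from 3 to 1 with normexp (Inmt), 5 within slide 1, 7 with array weights and 7 with the mean of probes, and to between 2 and 4 without 1 mouse. Probes near Adi1 called went from 3 to 0 with normexp (limma, 1 at an unadjusted p under 0.05) and to between 2 and 3 without 1 mouse.

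The call of Inmt held in 21 of 21 alternatives (adjusted p from 6.43e-05 to 0.00814, limma). Those of Tpmt and Allc were lost with normexp alone of 21 (limma, adjusted p = 0.588 and 0.475). That of Trappc12 A_51_P299655 was lost with normexp (limma, adjusted p = 0.962), and the probe did not enter when all 6 arrays had to be well above background, nor as the gene's brightest probe. Colec11 and Mri1 kept theirs in 11 of 21 each. The sign of a member's difference changed in 8 of 21 alternatives for Cbs, 5 for Mtr A_51_P408310 and 2 each for Mtr A_51_P218612 and both Ahcy probes, and in none for the other 8 probes. Among the related genes named, the sign changed with normexp for Mtrr and Shmt1, and without both C57BL/6J replicate 3 and BTBR replicate 2 for Kyat1 (0.02). Nnmt passed in 6 of 21 alternatives, among them scaling to the median (adjusted p = 0.0474, limma) and quantile normalization (adjusted p = 0.0496, limma), Mthfd2 in 3, and Ado, Amd1 and Tyms in 1 each. Mice of the same replicate number did not deviate together (r of 0.03, -0.17 and -0.08 over probes), while r for unlike numbers ran from -0.21 to 0.27. With 3 mice per strain this cannot show whether the design paired them. With a replicate block, calls over all probes numbered 922, members 1, related genes 2 and probes near Adi1 2. The cause of these shifts was not tested. The 6 arrays limit precision, and dim probes such as Mat2b A_52_P362836 lie near the lowest signals measured well above background.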
